A study of Mus musculus with 20 samples.

Results

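Macrophages are a minor population of the embryonic heart, and 10 genes that mark them in tissue were examined in RNA of whole mouse hearts at E13.5. The genes are Csf1r, Cx3cr1, Adgre1, Mrc1, Cd68, C1qa, C1qb, C1qc, F13a1 and Pf4, chosen by name as tissue macrophage markers and not by any measured value. They are 10 of the 48795 genes in the deposited table, and 10 of the 15304 genes whose mean normalized count over all hearts reached 10 and which were tested. The data comprised mRNA libraries of 20 whole hearts, each from a separate embryo: 10 WT, 5 Dp1Tyb and 5 labelled Dp1TybDyrk1a+/+/-. Dp1Tyb mice, a model of Down syndrome, carry an extra copy of the stretch of chromosome 16 from Lipi to Zbtb21. Hearts labelled Dp1TybDyrk1a+/+/- carry the same duplication together with a null allele (Dyrk1a tm1Mla) of 1 of the 3 copies of Dyrk1a, which encodes a protein kinase. The controls are wild-type littermates, but the labels do not tie a WT heart to a litter or to a mutant group. All 10 WT hearts therefore served in both comparisons with WT. In the study, Dp1TybDyrk1a+/+/- mice were bred as a strain of their own, with their own wild-type littermates as controls. WT hearts of both strains may thus be pooled here. Dp1Tyb versus Dp1TybDyrk1a+/+/- also compares separately bred strains, so genotype and strain cannot be told apart there. None of the macrophage genes lies on chromosome 16.

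Dyrk1a itself had a mean log2 value of 11.37 ± 0.0441 (SD, n = 10) in WT hearts, 11.69 ± 0.0401 (n = 5) in Dp1Tyb hearts and 11.76 ± 0.0561 (n = 5) in the hearts labelled Dp1TybDyrk1a+/+/-. The level of the third group was not below that of Dp1Tyb. The null allele lacks only some exons, so a total over the whole gene does not check the label. The study examined those exons by RNA sequencing and the protein by mass spectrometry. Neither reads over single exons nor protein data were analysed here. Directions below that involve these hearts take the group from its label. Heart was the labelled tissue, and the muscle genes Myh7 and Actc1 had mean log2 values of 17.01 and 16.89. Library names placed the hearts in 3 sequencing lanes, with 4, 4 and 2 WT, 2, 2 and 1 Dp1Tyb and 1, 1 and 3 labelled Dp1TybDyrk1a+/+/- hearts in lanes 3, 6 and 7. Sequencing depth is unknown, since totals of reads were not analysed here.

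Tissue macrophages arise before birth from yolk sac and fetal liver progenitors and settle in organs, the heart among them, where they clear dying cells and remodel tissue. Their survival depends on the receptor encoded by Csf1r, which binds the growth factors CSF1 and IL-34, and their identity on transcription factors such as PU.1, the product of Spi1. The 3 C1q genes encode the chains of the complement recognition protein C1q, which macrophages make in quantity. Macrophages of the embryo also express F13a1 and Pf4, and both of these genes are strongly expressed in megakaryocytes and platelets as well. In whole hearts, fewer macrophages and less RNA per macrophage cannot be told apart.

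The promoters of several of these genes held the letters AGGAAGT, the kind of core sequence that PU.1 and other ETS family proteins recognise. RefSeq promoters (GRCm38.p6) were at hand for 7 of the 10 genes, with 8 start sites, since F13a1 has 2. The 250 bases before the start held AGGAAGT on either strand (read as ACTTCCT on the opposite strand) in 5 of these 8 promoters, or 62.5%, and in 2525 of 32851 promoters of the whole table, or 7.69%. The windows below are shown because they contain these letters, in capitals, within 50 bases on the strand of the gene, written 5′ to 3′. They lie at chr2:14229181-14229230 (plus strand, Mrc1), chr4:136886226-136886275 (minus strand, C1qb), chr4:136893082-136893131 (minus strand, C1qc), chr13:37049222-37049271 (minus strand, F13a1, its second start) and chr5:90772385-90772434 (plus strand, Pf4).
Mrc1: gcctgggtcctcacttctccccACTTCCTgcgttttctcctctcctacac
C1qb: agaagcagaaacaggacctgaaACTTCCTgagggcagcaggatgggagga
C1qc: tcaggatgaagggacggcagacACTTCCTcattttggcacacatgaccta
F13a1: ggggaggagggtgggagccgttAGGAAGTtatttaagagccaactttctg
Pf4: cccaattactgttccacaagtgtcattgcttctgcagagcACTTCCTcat

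In Pf4 the letters lay 10 to 4 bases before the start, in F13a1 36 to 30, in C1qb 53 to 47, in C1qc 195 to 189 and in Mrc1 211 to 205. The windows of Cx3cr1, Cd68 and the first start of F13a1 did not contain them. These matches describe the letters of the windows, and binding was not measured here.

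All 10 genes were expressed in every heart. Levels between genes were compared per length, as the normalized count at the mean log2 value divided by the length of the Ensembl canonical transcript in GENCODE M39. By this scale C1qa was highest at 126 normalized counts per kb, followed by Csf1r at 97.9, Mrc1 at 93.1, C1qc at 90.7 and Cx3cr1 at 83.9. C1qb (67.8), F13a1 (65.9), Cd68 (58.5), Pf4 (48.9) and Adgre1 (40.4 normalized counts per kb) were lower. Dividing by the union of all annotated exons left C1qa first at 84.9 and Csf1r second at 80.4 normalized counts per kb, but moved C1qb from rank 6 to rank 10 (27.5). The order of the middle ranks therefore depends on the length used. On the scale of the deposited values each gene varied little from heart to heart. Its highest and lowest hearts of all 20 differed by 1.15-fold in C1qb, the steadiest, and by 1.28-fold in F13a1, the most variable. These folds are the deposited log2 differences put on the linear scale. The weakly expressed genes Cd163 and Il34 had WT SDs of only 0.00867 and 0.00884. The transformation is not given, so such folds and spreads need not equal those of the counts.

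The first question was whether the duplication, with 3 copies of Dyrk1a or fewer, changed the level of macrophage genes. None of the 10 genes passed the test in any comparison. In Dp1Tyb versus WT 0 of the 10 genes passed an adjusted p of 0.05 in limma, where 3.08% of all genes tested did, and 0 of 10 had an unadjusted p under 0.05, where 15.6% of all genes did. In Dp1TybDyrk1a+/+/- versus WT 0 of 10 passed (0.712% of all genes), and 3 of 10 had an unadjusted p under 0.05 (9.64% of all genes). In Dp1Tyb versus Dp1TybDyrk1a+/+/- 0 of 10 passed (1.16% of all genes), and 0 of 10 had an unadjusted p under 0.05 (18.5% of all genes). The 178 genes that make up this 1.16% became 30 without Dp1Tyb heart 3 and 302 without heart 1 labelled Dp1TybDyrk1a+/+/-, and leaving out any other heart of these groups but heart 2 of that label gave 36 to 104. With both duplication groups averaged against WT, 0 of 10 passed (1.35% of all genes) and 0 of 10 had an unadjusted p under 0.05 (1533 of 15304 genes, or 10%). The comparisons with WT share their control hearts, so they are not independent of each other.

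The median log2 fold change of the 10 genes was -0.02 for Dp1Tyb against WT, -0.03 for Dp1TybDyrk1a+/+/- against WT and 0.03 for Dp1Tyb against Dp1TybDyrk1a+/+/-. Over all 15304 genes these medians were 0.00 in each comparison. In simulated data with the spread of these hearts, the fit for Dp1Tyb versus WT called 38 of 200 genes shifted by 0.1 on the log2 scale, 161 of 200 shifted by 0.2 and 185 of 200 shifted by 0.3. Changes of the size of 0.1 would therefore mostly have been missed. The shifted genes were drawn at random from all genes tested, with noise independent between genes. These counts are therefore not rates for the 10 macrophage genes. Dp1Tyb versus Dp1TybDyrk1a+/+/-, which has fewer hearts, was not evaluated in this way. Fold changes and simulated shifts are on the scale of the deposited log2 values, which need not equal that of the counts.

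**Figure D1:**
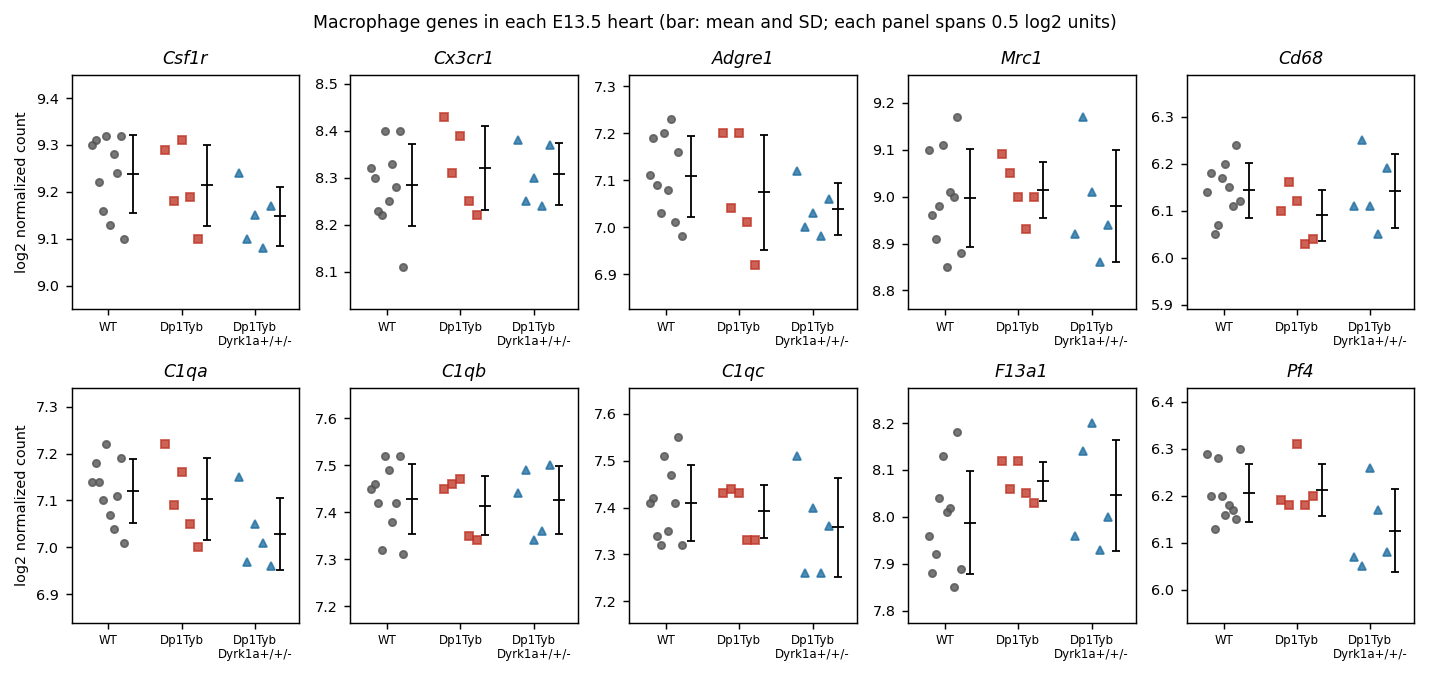
Log2 normalized count (y axis) of each macrophage gene in each heart, by genotype (x axis). Points are hearts, bars are the mean and SD of 10 WT, 5 Dp1Tyb and 5 hearts labelled Dp1TybDyrk1a+/+/-, and every panel spans the same 0.5 log2 units. In each of the 10 panels the 3 groups overlap.

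Among the surface receptors, Csf1r, the receptor of CSF1 and IL-34, ran in WT hearts from a log2 normalized count of 9.10 through a median of 9.26 to 9.32. In Dp1Tyb hearts 1 to 5 it was 9.29, 9.18, 9.31, 9.19 and 9.10. In hearts 1 to 5 labelled Dp1TybDyrk1a+/+/- it was 9.24, 9.10, 9.15, 9.08 and 9.17. All 5 of the latter lay below the WT median, 2 of them (hearts 2 and 4) below the lowest WT heart, the first by less than the 2 decimals printed, while Dp1Tyb hearts lay within the WT range. The log2 fold change of Csf1r was -0.02 (SE 0.0413, adjusted p = 0.856, limma) in Dp1Tyb versus WT and -0.09 (95% interval -0.18 to -0.00, p = 0.0398, adjusted p = 0.489, limma) in Dp1TybDyrk1a+/+/- versus WT, which missed the threshold.

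Cx3cr1, the receptor of the chemokine fractalkine, ran in WT hearts from 8.11 through a median of 8.29 to 8.40. Dp1Tyb hearts 1 to 5 had log2 values of 8.43, 8.31, 8.39, 8.25 and 8.22. The hearts labelled Dp1TybDyrk1a+/+/- had 8.38, 8.25, 8.30, 8.24 and 8.37. The 3 groups overlapped, and only Dp1Tyb heart 1 lay outside the WT range. Its log2 fold changes were 0.04 (95% interval -0.06 to 0.13, adjusted p = 0.775, limma) in Dp1Tyb and 0.03 (-0.06 to 0.12, adjusted p = 0.865) in Dp1TybDyrk1a+/+/-, each versus WT.

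Adgre1, which encodes the antigen F4/80 used to identify mouse macrophages, ran in WT hearts from 6.98 through a median of 7.10 to 7.23. Its log2 values in Dp1Tyb hearts were 7.20, 7.04, 7.20, 7.01 and 6.92, and in hearts labelled Dp1TybDyrk1a+/+/- 7.12, 7.0, 7.03, 6.98 and 7.06. Dp1Tyb hearts reached from the upper WT values to below the lowest, the widest spread of Adgre1 in a group (SD 0.121). The log2 fold changes versus WT were -0.03 (adjusted p = 0.797, limma) in Dp1Tyb and -0.07 (adjusted p = 0.650) in Dp1TybDyrk1a+/+/-.

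Mrc1, the mannose receptor CD206 of resident macrophages and of some endothelial cells, ran in WT hearts from 8.85 through a median of 8.99 to 9.17. Dp1Tyb hearts had log2 values of 9.09, 9.05, 9.0, 8.93 and 9.0, and hearts labelled Dp1TybDyrk1a+/+/- had 8.92, 9.17, 9.01, 8.86 and 8.94. All 10 mutant values lay within the WT range to 2 decimals. The log2 fold changes of Mrc1 were 0.02 (adjusted p = 0.904, limma) and -0.02 (adjusted p = 0.939) versus WT.

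Cd68, a glycoprotein of the lysosome membrane that phagocytes carry in abundance, ran in WT hearts from 6.05 through a median of 6.15 to 6.24. It was 6.10, 6.16, 6.12, 6.03 and 6.04 in Dp1Tyb hearts and 6.11, 6.25, 6.11, 6.05 and 6.19 in hearts labelled Dp1TybDyrk1a+/+/-. Dp1Tyb hearts 4 and 5 lay just below the lowest WT heart, and the others overlapped with WT. Cd68 differed from WT by -0.05 (95% interval -0.12 to 0.02, adjusted p = 0.501, limma) on the log2 scale in Dp1Tyb and by 0.00 (-0.07 to 0.07, adjusted p = 0.998) in Dp1TybDyrk1a+/+/-.

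C1qa, C1qc and C1qb lie beside each other on chromosome 4, between positions 136880126 and 136898844 of GRCm38.p6. C1qa ran in WT hearts from 7.01 through a median of 7.12 to 7.22. It was 7.22, 7.09, 7.16, 7.05 and 7.0 in Dp1Tyb hearts and 7.15, 6.97, 7.05, 7.01 and 6.96 in hearts labelled Dp1TybDyrk1a+/+/-. Of the latter, 2 lay below the lowest WT heart and 1 above the WT median. The log2 fold change of C1qa was -0.02 (adjusted p = 0.899, limma) in Dp1Tyb and -0.09 (95% interval -0.17 to -0.01, p = 0.0350, adjusted p = 0.475, limma) in Dp1TybDyrk1a+/+/-, each versus WT.

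C1qb ran in WT hearts from 7.31 through a median of 7.44 to 7.52 on the log2 scale, and all 10 mutant hearts lay between 7.34 and 7.50. C1qc ran in WT hearts from 7.32 through a median of 7.41 to 7.55. Dp1Tyb hearts had C1qc values of 7.43, 7.44, 7.43, 7.33 and 7.33, and hearts labelled Dp1TybDyrk1a+/+/- had 7.51, 7.26, 7.40, 7.26 and 7.36, of which 2 lay below every WT heart. Neither gene came near the threshold. The largest difference of either was -0.05 for C1qc in Dp1TybDyrk1a+/+/- versus WT (adjusted p = 0.716, limma), whereas C1qb gave -0.00 (adjusted p = 0.983).

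F13a1, which encodes the A chain of clotting factor XIII, ran in WT hearts from 7.85 through a median of 7.98 to 8.18. Dp1Tyb hearts 1 to 5 had log2 values of 8.12, 8.06, 8.12, 8.05 and 8.03. The hearts labelled Dp1TybDyrk1a+/+/- had 7.96, 8.14, 8.20, 7.93 and 8.0. All 5 Dp1Tyb hearts lay above the WT median and within the WT range, with the smallest spread of any of the 10 genes in a group (SD 0.0431). F13a1 had the largest difference of the 10 genes in Dp1Tyb versus WT, 0.09 on the log2 scale (95% interval -0.02 to 0.20, p = 0.108, adjusted p = 0.455, limma). In lanes 3, 6 and 7 this difference was 0.01, 0.08 and 0.25, the last with 1 Dp1Tyb heart.

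Pf4, the chemokine platelet factor 4, ran in WT hearts from 6.13 through a median of 6.19 to 6.30. Dp1Tyb hearts 1 to 5 had log2 values of 6.19, 6.18, 6.31, 6.18 and 6.20. The hearts labelled Dp1TybDyrk1a+/+/- had 6.07, 6.05, 6.26, 6.17 and 6.08. In the latter group 3 of 5 hearts lay below every WT heart and the other 2 lay among them. Pf4 differed by -0.08 (95% interval -0.15 to -0.00, p = 0.0394, adjusted p = 0.487, limma) in Dp1TybDyrk1a+/+/- versus WT and by 0.09 (95% interval -0.00 to 0.17, p = 0.0517, adjusted p = 0.274, limma) in Dp1Tyb versus Dp1TybDyrk1a+/+/-, the largest difference of the 10 genes in that comparison. Within lanes 3, 6 and 7 the difference of Pf4 in Dp1TybDyrk1a+/+/- versus WT was -0.13, -0.11 and -0.07.

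**Figure D2:**
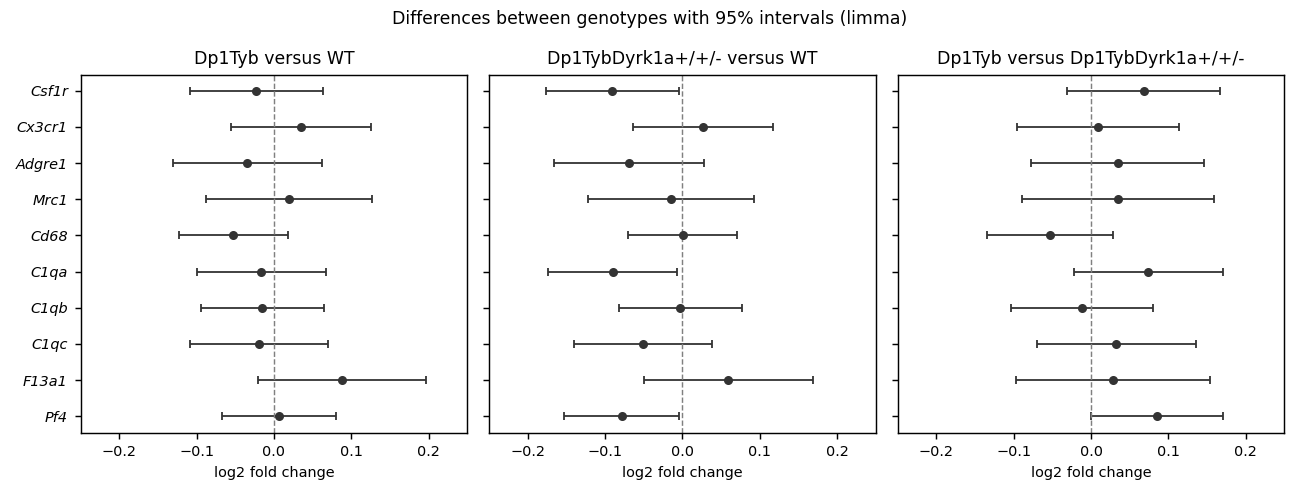
Log2 fold change (x axis) of each macrophage gene (y axis) for the 3 pairs of genotypes, 1 panel each. Points are limma estimates with their 95% intervals. The intervals lie between -0.18 and 0.20, and those of Csf1r, C1qa and Pf4 in Dp1TybDyrk1a+/+/- versus WT end just below 0.

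The direction of these small differences was not the same in each lane. In Dp1Tyb versus WT 9 of the 10 genes were lower in lane 3, 6 of 10 in lane 6 and 2 of 10 in lane 7. In lane 7 the differences reached 0.25, with 1 Dp1Tyb and 2 WT hearts, and lane 3 held 2 Dp1Tyb and 4 WT hearts. Several of the 10 genes vary together from heart to heart, so these counts of genes are not independent. With so few hearts, lane and single hearts cannot be told apart. In Dp1Tyb versus Dp1TybDyrk1a+/+/- 3 of 10 genes were higher in Dp1Tyb in lane 3, 7 in lane 6 and 9 in lane 7. With lane as a covariate 0 of 10 genes passed the threshold in every comparison.

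Averaged within each heart, the 10 genes had a mean log2 value of 7.59 ± 0.0598 (SD, n = 10) in WT, 7.59 ± 0.0620 (n = 5) in Dp1Tyb and 7.56 ± 0.0378 (n = 5) in hearts labelled Dp1TybDyrk1a+/+/-. It ran from 7.50 in heart 4 labelled Dp1TybDyrk1a+/+/- to 7.69 in WT heart 9. In WT heart 5 all 10 genes were above their median over the 20 hearts, in WT hearts 1 and 9 and Dp1Tyb hearts 1 and 3 it was 9 of 10, and in heart 4 labelled Dp1TybDyrk1a+/+/- it was 0 of 10. High and low hearts occurred within WT and Dp1Tyb alike.

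The second question was whether the 10 genes rose and fell together from heart to heart. Over the 20 hearts 41 of the 45 pairs of genes had a positive Pearson r, with a median of 0.41, whereas over all 117098556 pairs of genes tested 49.7% were positive and the median was -0.003. By a permutation test of each pair, 15 of the 45 pairs had an adjusted p under 0.05 over the 45 pairs, all of them positive. The lowest r among these 15 was 0.54, which 6.80% of all pairs of genes reached. The hearts share a normalization and span 3 genotypes and 3 lanes. With genotype means removed 16 pairs passed, with lane means removed 16, and in the 10 WT hearts alone 9.

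Over the 20 hearts a core of 5 genes, Csf1r, Adgre1, Cx3cr1, C1qa and C1qc, was joined by all 10 of its pairs. The highest correlation was that of Csf1r with Adgre1 (r = 0.87, rho = 0.84, permutation p = 1e-05 for both, the smallest the permutations can give, adjusted p = 0.00045, 20 hearts). Without the 2 hearts farthest from the median of Csf1r it was 0.85. Csf1r also followed C1qa (r = 0.83, rho = 0.83, adjusted permutation p = 0.00045) and C1qc (r = 0.81, rho = 0.83, adjusted permutation p = 0.00105). With genotype means removed Csf1r and Cx3cr1 had r = 0.91. In the 10 WT hearts alone C1qa passed with no other gene of the core. Its adjusted permutation p there ran from 0.0516 with Csf1r to 0.215 with Adgre1. Adgre1 and C1qc also missed the threshold in those hearts (adjusted permutation p = 0.0526).

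The complement genes did not form the tightest group, although they are neighbours and their products assemble into one protein. C1qa and C1qc had r = 0.70 (rho = 0.69, permutation p = 0.00068, adjusted p = 0.00306). C1qa and C1qb had r = 0.44 (rho = 0.38, permutation p = 0.0508, adjusted p = 0.109), and C1qb and C1qc r = 0.49 (rho = 0.50, permutation p = 0.0309, adjusted p = 0.0772), which both missed the threshold. C1qb was closest to Cd68 (r = 0.73, rho = 0.75, permutation p = 0.00027, adjusted p = 0.00174, and r = 0.78 without the 2 farthest hearts). It also passed with Cx3cr1 (r = 0.69), Adgre1 (r = 0.57) and Csf1r (r = 0.54), with adjusted permutation p of 0.00315, 0.0317 and 0.0490. The order of the complement pairs depended on the hearts used. In the 10 WT hearts r was 0.76 for C1qa and C1qb, 0.68 for C1qb and C1qc and 0.59 for C1qa and C1qc. Their adjusted permutation p was 0.0503, 0.0880 and 0.144.

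The other genes stood further apart. Mrc1 and F13a1 had r = 0.62 with each other (rho = 0.67, permutation p = 0.00408, adjusted p = 0.0153), falling to 0.48 without the 2 hearts farthest from the median of Mrc1, and over the 20 hearts each passed with no other gene of the 10. This depended on the hearts used for Mrc1. In the 10 WT hearts Mrc1 passed with Csf1r (r = 0.81, adjusted permutation p = 0.0369), Cx3cr1 (r = 0.82, adjusted permutation p = 0.0278) and C1qc (r = 0.83, adjusted permutation p = 0.0278), and not with F13a1 (r = 0.61, adjusted permutation p = 0.134). With genotype means removed it passed with F13a1 and with Cd68 (adjusted permutation p = 0.0224). Pf4 passed with 0 of the other 9 genes. Its r with them ran from -0.43 (C1qb) to 0.22 (C1qa), and its r with the mean z score of the other 9 genes was -0.07 (rho = 0.03), against 0.81 (rho = 0.81) for Csf1r and 0.38 (rho = 0.31) for F13a1.

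**Figure D3:**
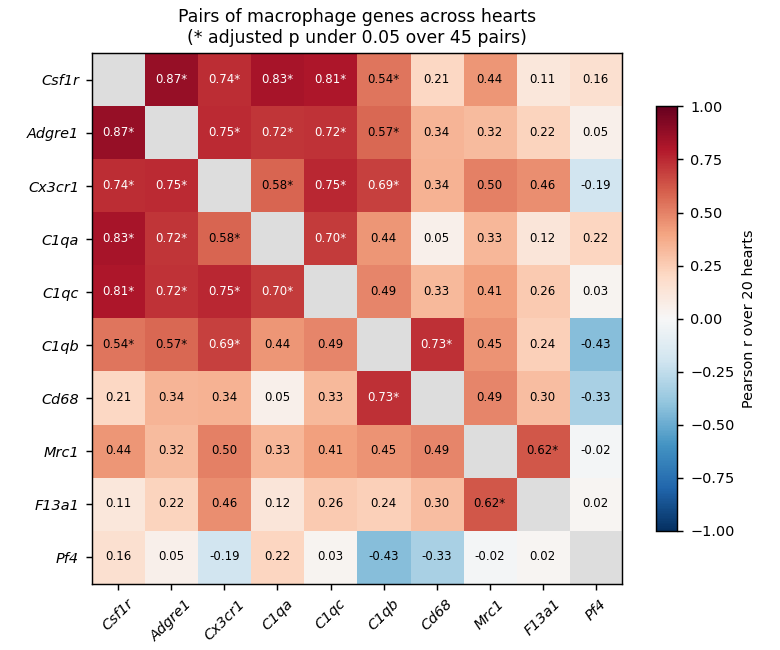
Pearson r over the 20 hearts for each pair of macrophage genes (both axes), in colour from -1 to 1 with the value printed. Asterisks mark the 15 of 45 pairs with an adjusted permutation p under 0.05, which lie mostly among Csf1r, Adgre1, Cx3cr1, C1qa and C1qc, and the row of Pf4 holds none.

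Because Pf4 and F13a1 are also genes of megakaryocytes, they were set against 13 markers of megakaryocytes and platelets, among 121 pairs of a member with a gene of another list that were chosen after the values were seen. Pf4 followed Itga2b, the platelet integrin chain CD41 (r = 0.73, rho = 0.69, permutation p = 0.00026, adjusted p = 0.0149 over the 121 pairs, r = 0.64 without the 2 farthest hearts and 0.76 with genotype means removed). It also followed Tubb1, the tubulin of platelets (r = 0.67, rho = 0.65, permutation p = 0.00116, adjusted p = 0.0281, r = 0.55 without the 2 farthest hearts). Pf4 passed with these 2 of the 13 markers, and not with the other 11. Over the 13 its median r was 0.27, and the lowest were -0.19 for Gp1ba and -0.13 for Vwf. F13a1 passed with 0 of the 13 markers, its highest r being 0.40, and Csf1r likewise with 0 of 13 (highest 0.12). In Dp1Tyb heart 3, the highest for Pf4 at 6.31, Itga2b was 7.93 and Tubb1 5.57, and Tubb1 was higher in no other heart. In heart 2 labelled Dp1TybDyrk1a+/+/-, the lowest for Pf4 at 6.05, Itga2b was 7.47 and Tubb1 5.32.

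**Figure D4:**
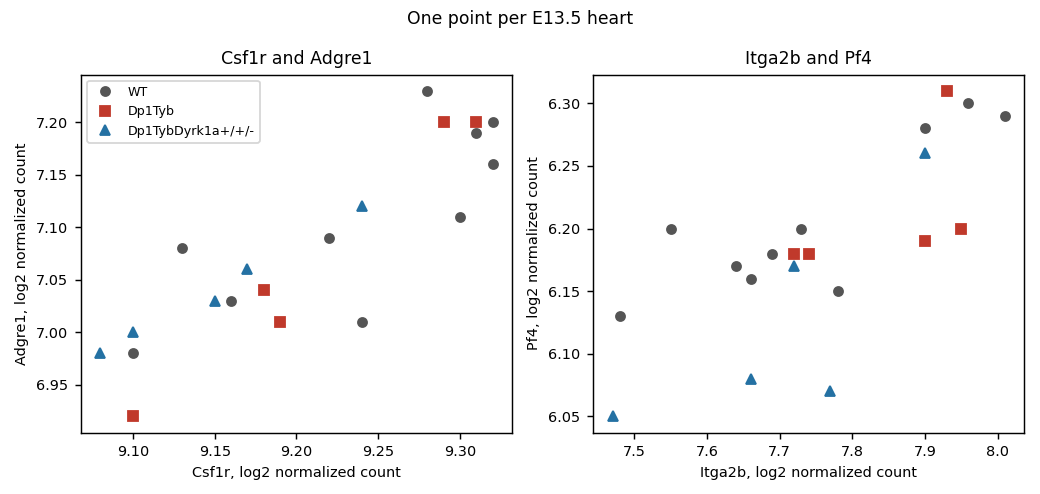
Left, Adgre1 against Csf1r, and right, Pf4 against Itga2b, as log2 normalized counts with 1 point per heart and symbols by genotype. Both clouds rise from lower left to upper right, with r = 0.87 and 0.73 over 20 hearts, and genotypes are mixed along them.

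Macrophage transcription factors were measured by 12 genes, all of which passed the filter and 0 of which passed the threshold in any of the comparisons. Spi1 had a mean log2 value of 5.44 and differed by -0.05 (adjusted p = 0.624, limma) in Dp1Tyb versus WT. Runx1, a factor of blood stem cells and their progeny, lies on chromosome 16 within the duplicated stretch. Its mean log2 value was 6.61 in WT, 6.71 in Dp1Tyb and 6.71 in hearts labelled Dp1TybDyrk1a+/+/-, and it differed from WT by 0.095 (adjusted p = 0.440, limma) and 0.10 (adjusted p = 0.569). Across hearts Csf1r followed Cebpa (r = 0.71, rho = 0.76, permutation p = 0.00037, adjusted p = 0.0149), a factor of myeloid progenitors. It ran against Prox1 (r = -0.64, rho = -0.66, permutation p = 0.00181, adjusted p = 0.0365), a factor of lymphatic endothelium and cardiac muscle. These hearts were the same 20, and the adjustment is over the same 121 pairs.

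Ligands of the receptors were also measured. Csf1, the main ligand of Csf1r in most tissues, had a mean log2 value of 8.86, while Il34, the other ligand, was near the floor at 1.67 in WT hearts and did not pass the filter. Csf1 differed by 0.11 (95% interval 0.01 to 0.21, adjusted p = 0.255, limma) and Cx3cl1, the ligand of Cx3cr1, by -0.08 (-0.15 to -0.02, adjusted p = 0.180, limma) in Dp1Tyb versus WT. Of the 7 ligands and chemokines tested of 12, 0 passed the threshold in any comparison, and neither Csf1r nor Cx3cr1 passed with any of the 7 across hearts.

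Beside the 10 genes, 32 further macrophage genes were listed, of which 26 passed the filter. Their median log2 fold change was 0.02 in Dp1Tyb versus WT and 0.01 in Dp1TybDyrk1a+/+/- versus WT, and 25 of the 26 did not pass the threshold in any comparison. The exception was Lyz2, the lysozyme of myeloid cells. Lyz2 ran in WT hearts from 8.73 through a median of 8.81 to 8.92, and was 9.01, 9.20, 9.20, 9.07 and 8.95 in Dp1Tyb hearts. It was 8.89, 8.74, 8.85, 8.86 and 8.97 in hearts labelled Dp1TybDyrk1a+/+/-. Every Dp1Tyb heart lay above every WT heart, whereas the third group overlapped with both. Lyz2 rose by 0.28 on the log2 scale in Dp1Tyb versus WT (SE 0.0578, adjusted p = 0.000486, limma) and was higher in Dp1Tyb than in Dp1TybDyrk1a+/+/- by 0.23 (adjusted p = 0.0327, limma), a call that ended without any 1 of 6 hearts, namely Dp1Tyb hearts 2, 3 and 4 and hearts 2, 3 and 4 labelled Dp1TybDyrk1a+/+/-, and at 3 of 10 settings, namely no filter, lane as a covariate and only the compared hearts (adjusted p from 0.00581 to 0.168 over the settings). Across the 20 hearts Lyz2 had an r of 0.16 (rho = 0.11) with the mean z score of the 10 macrophage genes.

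Lysozyme is also made by neutrophils, and markers of those cells were examined too. Of 9 neutrophil markers 5 passed the filter, and 4 of them, S100a8, S100a9, Ltf and Ngp, rose in Dp1Tyb versus WT, where 1.81% of all genes tested rose, by 0.19, 0.18, 0.18 and 0.17 on the log2 scale (adjusted p = 0.00959, 0.0102, 0.0202 and 0.0338, limma). They are genes of granule and cytosolic proteins of neutrophils and were weakly expressed, with mean log2 values near 4 and no more than 4.2. Mpo, the other marker tested, had means of 3.86 in WT and 3.92 in Dp1Tyb hearts and did not pass. S100a8 ran in WT hearts from 4.07 through a median of 4.11 to 4.16, and was 4.20, 4.35, 4.51, 4.28 and 4.15 in Dp1Tyb hearts and 4.23, 4.18, 4.25, 4.24 and 4.34 in hearts labelled Dp1TybDyrk1a+/+/-. All but 1 of the 10 mutant hearts lay above the highest WT heart. In Dp1TybDyrk1a+/+/- versus WT, S100a8 differed by 0.14 (adjusted p = 0.163, limma), and 0 of the 5 markers passed. Over the other settings this adjusted p ran from 0.00226 to 0.288 (limma). Some markers, at most 2, passed with weights per heart and with only the compared hearts. In Dp1Tyb versus Dp1TybDyrk1a+/+/- S100a8 differed by 0.05 (adjusted p = 0.591, limma), and 0 of the 5 passed. The summed normalized count of the 9 markers ran from 83.2 to 89.7 in WT, 86.6 to 108 in Dp1Tyb and 87.4 to 94.1 in hearts labelled Dp1TybDyrk1a+/+/-. Of the 4 markers that did not pass the filter, Ly6g, Elane, Mmp8 and Camp, the mean log2 values were -2.16, -0.67, 0.74 and 1.86. The part of neutrophils in the result for Lyz2 was not tested. Without Dp1Tyb heart 2 or heart 3 the markers called numbered 2, and the call of Ltf ended. That of Ngp ended without any 1 of 9 hearts, namely WT hearts 1, 3, 5, 7, 8 and 10 and Dp1Tyb hearts 1, 2 and 3.

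Cd68 is a lysosome protein, and 15 other lysosome genes were tested. Of these 5 rose in Dp1Tyb versus WT, where 1.81% of all genes tested rose, namely Hexa (0.19, adjusted p = 3.07e-06, limma), Ctsl (0.14, adjusted p = 0.0113), Ctsd (0.12, adjusted p = 0.0352), Lgmn (0.12, adjusted p = 0.00963) and Lipa (0.10, adjusted p = 0.0154), which encode lysosomal hydrolases found in most cell types. The median over the 15 genes was 0.07 in that comparison, with 14 of 15 above 0, against 48.5% of all genes tested. In Dp1TybDyrk1a+/+/- versus WT the median was 0.01, with 8 of 15 above 0, against 47.4% of all genes tested. Hexa, an enzyme of ganglioside breakdown, ran in WT hearts from 10.04 through a median of 10.08 to 10.11 and was 10.26, 10.31, 10.27, 10.28 and 10.25 in Dp1Tyb hearts and 10.23, 10.10, 10.18, 10.19 and 10.20 in hearts labelled Dp1TybDyrk1a+/+/-. Dp1Tyb did not overlap with either other group for Hexa, and 4 of 5 hearts of the third group lay between. In Dp1Tyb versus Dp1TybDyrk1a+/+/-, however, Hexa differed by 0.09 (adjusted p = 0.055, limma) and missed the threshold. In that comparison 0 of the 15 lysosome genes passed, where 1.16% of all genes tested did, and other settings gave 0 to 4. Hexa also rose in Dp1TybDyrk1a+/+/- versus WT, by 0.10 (adjusted p = 0.0163, limma), and was the only lysosome gene to do so, where 0.627% of all genes tested rose. The call of Ctsd ended without any 1 of 8 hearts (WT hearts 5, 7, 8 and 9 and Dp1Tyb hearts 1, 3, 4 and 5), with no filter and with quantile normalization, and that of Lipa without Dp1Tyb heart 1 or 5, which left 3 genes called. That of Hexa in Dp1TybDyrk1a+/+/- ended without heart 1, 4 or 5 of that label (adjusted p up to 0.0734) and with only the compared hearts (adjusted p = 0.0561). Across hearts Cd68 passed with 3 of the 15 lysosome genes, and its median r with the 15 was -0.30. It ran against Ctsd (r = -0.69, rho = -0.60, permutation p = 0.00058, adjusted p = 0.0175, r = -0.50 without the 2 farthest hearts) and Psap (r = -0.60, rho = -0.50, permutation p = 0.00349, adjusted p = 0.0469). It ran with Gpnmb (r = 0.63, rho = 0.59, permutation p = 0.00315, adjusted p = 0.0469), a membrane protein of phagocytes. For rho the adjusted permutation p was 0.0914, 0.189 and 0.0915, so these calls did not hold on ranks.

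**Figure D5:**
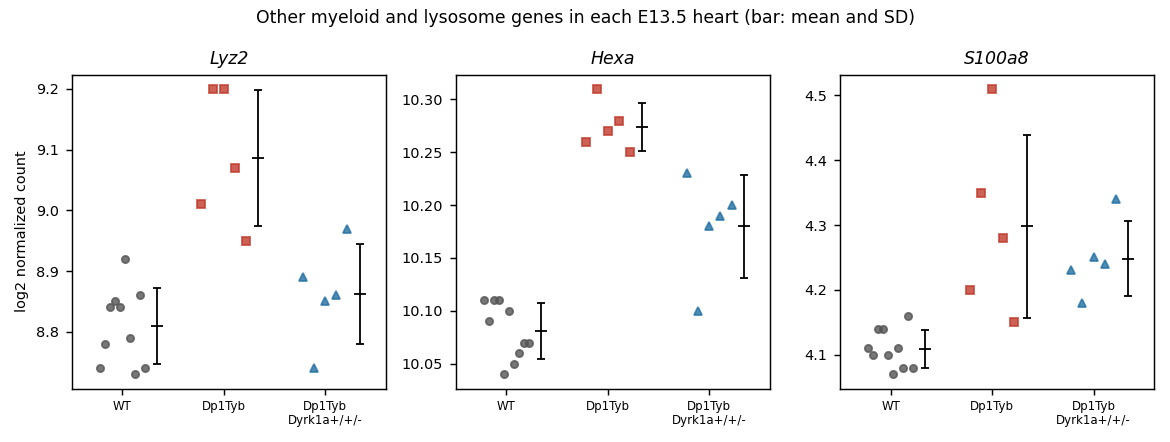
Log2 normalized count (y axis, a different span in each panel) of Lyz2, Hexa and S100a8 in each heart, by genotype (x axis). Points are hearts, and bars are the mean and SD. All 5 Dp1Tyb hearts lie above all 10 WT hearts for Lyz2 and Hexa, and 4 of 5 do for S100a8.

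Of the complement genes that act with C1q, C3ar1, the receptor for a fragment of C3, differed by -0.05 in Dp1Tyb versus WT (adjusted p = 0.710, limma). In lists of other cells, 1 of 13 platelet markers and 1 of 7 lymphatic and liver-type endothelial markers rose in Dp1Tyb versus WT, where 1.81% of all genes tested rose. They were Vwf (0.47, adjusted p = 2.5e-06, limma), also a gene of endothelium, and Clec4g (0.19, adjusted p = 3.24e-05, limma). Vwf also rose in Dp1TybDyrk1a+/+/- versus WT, by 0.33 (adjusted p = 0.000502, limma), where 0.627% of all genes tested rose. That call held at every setting and with each heart left out. Clec4g differed there by 0.10 (adjusted p = 0.0557, limma) and missed the threshold. Of 6 monocyte and dendritic, 2 mast cell, 10 erythroid and 12 heart markers tested, 0 passed in any comparison, and 0 of 9 lymphocyte markers reached the filter. Of genes that define subsets of resident macrophages, Cd163 and Timd4 lay near the floor, with WT means on the log2 scale of 0.50 and 2.47. Folr2 was weakly expressed, at 3.99 in WT hearts, but passed the filter. Lyve1 was higher, with a mean log2 value of 7.61 over all hearts.

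The genes outside the 10 whose pattern over the 20 hearts was most like their mean z score were Cadm4 (r = 0.83, rho = 0.73), Lratd1 (r = 0.82, rho = 0.75), Ppp2r2b (r = 0.82, rho = 0.72), Adamts7 (r = 0.82, rho = 0.80) and Sema4f (r = 0.81, rho = 0.71). Rdh10, Zfp503, Cacnb3, Dtx4 and Celf3 followed with r from 0.81 to 0.80. None of these 10 genes is in a list used here. Of the 26 other macrophage genes 23 had a positive r, with a median of 0.49, the highest for Tmem119 (0.75) and the lowest for Sall1 (-0.61). Of the 12 transcription factors 9 did, with a median of 0.39, the highest for Cebpa (0.75) and the lowest for Nr1h3 (-0.50). Each of these 2 lists had 1 gene among the 100 most alike. Over all other genes tested the median was -0.02. Of 12 heart markers 11 had a negative r, with a median of -0.48 and the lowest for Nkx2-5 (r = -0.69, rho = -0.64), a factor of cardiac muscle cells. Erythroid markers, which vary with the blood left in the heart, had a median r of -0.04 and platelet markers of 0.04. These values describe 20 hearts that share a normalization.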

How the data were processed

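Hearts were grouped by the genotype in the labels (10 WT, 5 Dp1Tyb, 5 Dp1TybDyrk1a+/+/-). The authors deposited log2-transformed normalized counts of 48795 genes in 20 hearts, from -2.31 to 18.97, with 19473 genes at 0 throughout. The submitters' processing notes name Trimmomatic 0.36, STAR 2.5.2a, RSEM 1.2.31, DESeq, DESeq2 and GRCm38, with no role or order. The transformation and strand setting are not given in the sources used here. The 15304 genes whose mean reached 10 normalized counts were tested on the log2 values in limma 3.58.1 (R 4.3.3), using lmFit and eBayes with a trend, a separate mean for each genotype and a shared spread over the 20 hearts. Tests were two-sided, p was adjusted by Benjamini-Hochberg over every gene tested, and the threshold was 0.05. The authors tested with DESeq2, which needs counts. p-values rest on the spread between hearts, and no counting interval was given, since depth is unknown. Pairs of genes were tested with 100000 permutations of the hearts, two-sided, in Python 3.11.15 with numpy 2.4.6 and scipy 1.17.1. Simulated data were used to test the fit. Names came from GENCODE M39 (44565 genes), and coordinates and promoters from RefSeq GRCm38.p6. No 2 hearts held identical values.

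The members and the 13 other lists (168 genes, of which Lilrb4a and Ahsp matched no row) were chosen with earlier results of these data known. Named genes were the 10 members, list genes past the threshold or highest in level, the 10 genes most like the members, and Dyrk1a. Other genes were named after their values were seen. Alternatives were other filters, normalizations, variance models, weights, lane, subsets of hearts and leaving out each heart. Results for a few genes of the complement and transcription factor lists are not reported here.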

Additional observations from a re-analysis of the deposited data

Results flagged for a closer look

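Of 33 groups of hearts examined for a value far from the rest, 2 held one, and about 1 in 20 such groups would by chance. Pf4 in Dp1Tyb heart 3 was 6.31 on the log2 scale, where the nearest Dp1Tyb heart was 6.20, a gap of 0.913 of the range of the group. The mean over the 10 macrophage genes in heart 4 labelled Dp1TybDyrk1a+/+/- was 7.50, where the next heart of the group was 7.56, a gap of 0.71 of the range.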

How the results depend on the processing

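With each alternative 0 of the 10 genes passed the threshold in any comparison, at 10 settings and with each heart left out. Over 982 refitted fold changes the lowest adjusted p was 0.146 (limma, Pf4 in Dp1Tyb versus Dp1TybDyrk1a+/+/-, without heart 3 labelled Dp1TybDyrk1a+/+/-), and 55 had the opposite sign to the value reported, none of them called. A minimum count of 100 left 8 of the 10 genes. Fitting the compared groups alone gave no separate value for the mean of both duplication groups, which uses all hearts. Of pairs of genes called, 15 of 45 in all, 13 remained in number with quantile normalization (1 of them negative), 14 with median centring and 9 in WT hearts alone, where there are fewer samples. Leaving out 1 heart gave 11 to 23, the highest without heart 2 labelled Dp1TybDyrk1a+/+/-. The cause was not tested. The mean over the genes differed by -0.00099 in Dp1Tyb versus WT but by 0.12 within lane 7, and by 0.03 in Dp1Tyb versus Dp1TybDyrk1a+/+/- but by -0.0334 within lane 3 and 0.10 within lane 7, each with 1 heart on one side. Leaving out 1 heart moved these differences from -0.02 to 0.02 and from 0.01 to 0.05. For lists, alternatives were added after the values were seen. The number of lysosome genes called in Dp1Tyb versus WT was 4 to 8 with other settings and 3 to 5 with 1 heart left out, that of neutrophil markers 3 to 4 and 2 to 4 (a minimum count of 100 left none of them to test), and that of other macrophage genes 1 to 3 and 1 to 2, the higher without WT heart 9. Of all genes 471 passed in Dp1Tyb versus WT, with weights per heart 1422 and with only the compared hearts 779. In Dp1TybDyrk1a+/+/- versus WT the number was 109, and 341 with weights per heart. In Dp1Tyb versus Dp1TybDyrk1a+/+/- it was 178, with weights per heart 1247, with a minimum count of 100 273, with a minimum of 1 100, with no filter 76, with lane as a covariate 29 and with only the compared hearts 3. For the mean of both duplication groups it was 207, and 683 with weights per heart. Leaving out 1 heart gave 266 (without Dp1Tyb heart 3, and 293 to 303 without Dp1Tyb heart 1, 2 or 4) to 483 in the first of these comparisons, 88 to 158 in the second, 30 to 302 in the third and 173 to 388 (without heart 2 labelled Dp1TybDyrk1a+/+/-) in the last. Without counts, weakly expressed genes limit what could be seen. No paired analysis was possible because the labels give no replicate number shared between the groups.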
